A study of Homo sapiens with 6 samples.

Results

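The 10 genes described here are MYCN, its antisense partner MYCNOS, the neighbours DDX1 and NBAS on the short arm of chromosome 2, the paralogues MYC and MYCL, the partner MAX, the antagonists MXI1 and MXD4, and the target gene ODC1. They were chosen by name, with earlier results of these data known, and all 10 were found among the 26372 genes of the deposited table. The series concerned miR-137 and GOMAFU, a long non-coding RNA (symbol MIAT), in neuronal differentiation. It held 6 libraries of polyadenylated RNA from BE(2)-M17 cells: 3 labelled control and 3 labelled as GOMAFU knockdown, with replicates numbered 2, 3 and 4 in each group. BE(2)-M17 is a single established human neuroblastoma line, so both groups share one genetic background. Lipid transfection of 100 pmol of a small RNA is described in the labels, without the knockdown sequence or what the control cells received. The labels do not say whether replicates were separate cultures, so p-values measure only how much these samples vary, possibly for technical reasons. Values are FPKM, fragments scaled by gene length and library total, and are listed in the order of replicates 2, 3 and 4.

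MYC, MYCN and MYCL are transcription factors that bind DNA as dimers with MAX, preferring the E box CACGTG, and raise genes of ribosome production, metabolism and growth. MXI1, MXD1, MXD3, MXD4, MNT and MGA also pair with MAX on E boxes and mostly repress, the MXD proteins through SIN3 and histone deacetylases. In neuroblastoma MYCN is the amplified oncogene, DDX1 and NBAS are often carried in the same amplicon, and the lineage of this line is known for MYCN amplification. Copy number was not measured in these libraries, so levels of RNA are all that can be described.

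The sequences below show where the E box and an E2F-type motif lie at the members, since these are the letters through which the family and its targets are usually connected. They come from RefSeq on GRCh38.p14, from windows of 250 bases before to 50 bases after each listed start, and 9 of the 10 members had at least 1 window (14 windows in all). Each is written 5′ to 3′ on the strand of its gene. In the MYCN sequence, on the plus strand at chr2:15940300-15940549 and ending at the base before the RefSeq start, the capitals mark 2 overlapping matches to TTTNGCGC, 1 on each strand, beginning at positions -176 and -172 from the start.
MYCN: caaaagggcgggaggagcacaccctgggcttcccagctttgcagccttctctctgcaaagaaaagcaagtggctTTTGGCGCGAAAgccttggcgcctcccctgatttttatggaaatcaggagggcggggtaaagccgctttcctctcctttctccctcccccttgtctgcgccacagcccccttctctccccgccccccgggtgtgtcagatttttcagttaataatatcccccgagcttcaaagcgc
The ODC1 sequence lies on the minus strand at chr2:10447983-10448120, directly after exon 1 of the GENCODE transcript (10448121 to 10448504). Its capitals mark 2 CACGTG matches 34 bases apart, 29 bases before and 5 bases after a second, downstream RefSeq start, which lies 315 bases from the main one.
ODC1: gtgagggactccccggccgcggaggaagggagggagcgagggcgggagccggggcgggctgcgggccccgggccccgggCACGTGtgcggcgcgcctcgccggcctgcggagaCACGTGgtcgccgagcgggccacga
The MXD4 sequence is the upstream end of its window, on the minus strand at chr4:2262300-2262359, with 1 CACGTG match in capitals that begins at position -238 from the start.
MXD4: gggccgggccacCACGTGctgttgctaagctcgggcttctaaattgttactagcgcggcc
CACGTG, which reads the same on both strands, was found in windows of 2 of these 9 members, ODC1 and MXD4, against 7.26% of all 35116 RefSeq windows and 13.1% of the 9171 tested genes that have a window. The related E box CACGCG, searched on both strands, was found in 3 members (DDX1, MXI1 and ODC1) and in 23.7% of tested genes. TTTNGCGC, searched on both strands, was found in MYCN alone of the members and in 3.71% of tested genes. These matches are letters in a window and are not evidence of binding.

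Libraries had 11976 to 12314 genes at 1 FPKM or more, and the targeted MIAT stood at 5.38, 5.96 and 8.57 FPKM in control replicates, with 1.27, 1.32 and 3.21 after knockdown. Knockdown replicate 4 stood apart: it correlated with the other 5 libraries at r = 0.940 to 0.956 across genes, whereas these 5 correlated with one another at 0.984 to 0.997. ISG15, an interferon-induced gene, was at 48.6, 2.40 and 1622 FPKM in the knockdown libraries and at most 0.149 in a control. Its part in the values below was not tested. Of the adrenergic neuroblastoma markers, 8 of 10 had a mean of at least 1 FPKM, with a summed level of 2993 to 3255 in the controls and 2479 to 2968 in the knockdown libraries. The largest part of this sum was CHGA, at 1689, 1652 and 1781 FPKM in the controls and 1220, 1375 and 1439 in the knockdown libraries, whereas HAND2, at 527, 530 and 566 against 515, 538 and 606 FPKM, overlapped between groups, and TH, a defining gene of that state, was below 0.1. Of 9 mesenchymal-type markers, 5 reached a mean of 1 FPKM (sums 383 to 468 and 360 to 464, mostly VIM and TWIST1), and PRRX1 was listed at 0 throughout. Of 6 fibroblast markers, 3 reached a mean of 1 FPKM (sums 80.9 to 101 and 93.9 to 105, mostly DCN), and COL1A2 was listed at 0 in all libraries. Leukocyte markers summed to at most 3.26 FPKM, with CD3E at 0. In bulk RNA, fewer cells of a type and less RNA per cell cannot be told apart.

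MYCN was one of the most abundant transcripts of these cells, MYCL was barely detected, and MYC was at or close to 0. No member passed the test between knockdown and control (limma on log2(FPKM + 1), adjusted p under 0.05), and neither did any of the 12164 genes that averaged 1 FPKM or more (0%). The targeted MIAT itself did not pass in this fit, at a log2 difference of -1.42 (limma unadjusted p = 0.00125, adjusted p = 0.9998). Failing the test is thus weak evidence that a level was unchanged. With library weights in limma, 22 genes passed (0.181%) and again 0 members. At an unadjusted p under 0.05 there was 1 member, MYCNOS, of the 8 tested, and 263 of all genes (2.16%). The groups did not overlap for 1 of these 8 members (12.5%), again MYCNOS, against 8.36% of all tested genes in either direction and 4.35% with all knockdown libraries lower. Of the 8 fitted differences 6 were below 0 and 2 above, with a median of -0.07, and over all tested genes 53.3% were below 0, with a median of -0.01. Both members under the level limit, MYC and MYCL, are given by their values.

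**Figure D1:**
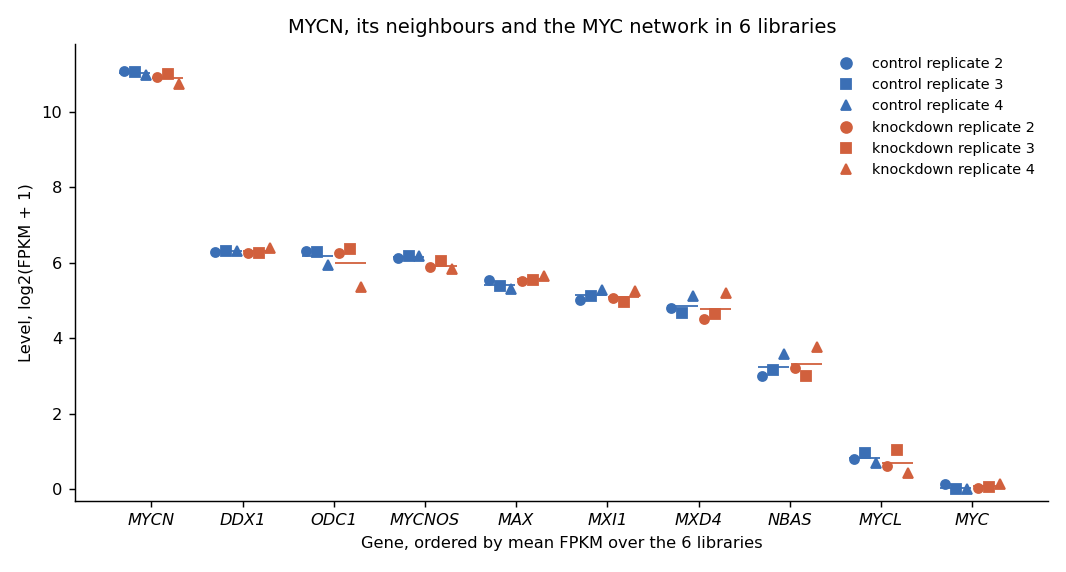
Level of each of the 10 genes as log2(FPKM + 1) in the 6 libraries, with colour for the group, marker shape for the replicate number and a line at each group mean on that scale. MYCN lies far above the others, DDX1, ODC1 and MYCNOS lie close together, and MYC lies at the bottom with 2 control libraries at 0.

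MYCN (chromosome 2, 15940564 to 15947007, plus strand, GENCODE 29) stood at 2169, 2139 and 1998 FPKM in control cells and at 1935, 2063 and 1710 in the knockdown libraries. Knockdown replicate 4 was the lowest of the 6, and the groups overlapped, since knockdown replicate 3 exceeded control replicate 4. The means were 2102 ± 91.3 and 1903 ± 179 FPKM (SD, n = 3 each). The log2 difference was -0.15 (SE 0.09, 95% interval -0.37 to 0.08, limma adjusted p = 0.9998). By mean level MYCN ranked 52 of 26372 genes, and its rank lay between 49 and 61 in every library. Without knockdown replicate 4 the log2 difference was -0.07. Its share of the summed FPKM was 0.340%, 0.350% and 0.325% in the controls and 0.334%, 0.333% and 0.286% in the knockdown libraries, so knockdown replicate 4 was again the lowest.

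MYC, the founding member of the family, was listed at 0.107, 0 and 0 FPKM in control cells and at 0.0272, 0.0431 and 0.110 in the knockdown libraries. MYCL (chromosome 1, 39895426 to 39902256, minus strand), the paralogue first found in lung cancer, stood at 0.737, 0.959 and 0.618 FPKM in the controls and 0.551, 1.05 and 0.344 in the knockdown libraries. The groups overlapped for both genes, and the highest value of either, 1.05 FPKM, was far under the lowest of MYCN, 1710. Without the limit on level, the fitted differences were 0.03 (SE 0.05) for MYC and -0.12 (SE 0.17) for MYCL, with a limma adjusted p of 0.99998 for each. The table holds no read counts, so how many fragments lie behind a MYC value of 0.110 is unknown.

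MYCNOS (chromosome 2, 15921037 to 15942249, minus strand) is transcribed from the strand opposite MYCN, overlaps its start, and is known both as a non-coding RNA and as the source of the protein NCYM, which stabilizes MYCN. It stood at 69.1, 71.8 and 72.2 FPKM in control cells and at 57.9, 65.0 and 56.3 in the knockdown libraries. Each knockdown library was lower than every control. The means were 71.0 ± 1.66 and 59.8 ± 4.63 FPKM (SD, n = 3 each), a knockdown to control ratio of 84.1%. The fitted log2 difference was -0.25 (SE 0.08, 95% interval -0.43 to -0.06, limma unadjusted p = 0.0159, adjusted p = 0.9998), which did not pass. The unadjusted p was 0.0581 without control replicate 3 and 0.0561 without knockdown replicate 2. Over the alternative settings its limma adjusted p lay between 0.0546, with library weights, and 1. The weights were uneven, from 0.153 for knockdown replicate 4 to 7.98 for control replicate 3, and their fit stopped before its tolerance. The next lowest limma adjusted p was 0.749, without both libraries numbered 4. The labels do not say that strand was counted. Without it, reads from the 98 exonic bases shared by MYCNOS and MYCN (4.06% of the exonic bases of MYCNOS, 3.77% of those of MYCN) cannot be told apart. By mean level MYCN stood at 2002 FPKM and MYCNOS at 65.4, so MYCN reads over these bases could make up much of the MYCNOS value. Their part was not tested, and the same limit holds for the ratio of MYCNOS to MYCN and its correlation with MYCN below.

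DDX1 (chromosome 2, 15591178 to 15631111, plus strand), a DEAD-box RNA helicase, stood at 76.8, 78.9 and 79.3 FPKM in control cells and at 76.5, 76.0 and 82.6 in the knockdown libraries. It varied least of the 8 tested members, its highest library being 1.09 times its lowest. The log2 difference was -0.00 (SE 0.07, 95% interval -0.16 to 0.16, limma adjusted p = 0.9998). NBAS (chromosome 2, 15166909 to 15561330, minus strand), a tethering factor for transport between Golgi and endoplasmic reticulum, stood at 7.07, 7.94 and 11.0 FPKM in control cells and at 8.24, 7.09 and 12.6 in the knockdown libraries. The library numbered 4 was the highest of its group in both, and the group means of 8.69 ± 2.09 and 9.32 ± 2.93 FPKM (SD, n = 3 each) differed by less than either SD (log2 difference 0.08, SE 0.23). DDX1 and NBAS belong to the 4 members, with MXI1 and MXD4, in which both libraries numbered 4 lay above the other 4 libraries, as in 21.2% of all tested genes. The reverse held for ODC1 alone of the members and for 24.5% of all tested genes.

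A ratio to MYCN within each library does not depend on how the library was scaled. DDX1 was at 3.54%, 3.69% and 3.97% of the MYCN level in the controls and at 3.95%, 3.68% and 4.83% in the knockdown libraries. MYCNOS was at 3.19%, 3.35% and 3.61% of MYCN in the controls and at 2.99%, 3.15% and 3.29% in the knockdown libraries, so as a ratio its groups overlapped. MAX was at 2.13%, 1.93% and 1.93% of MYCN in the controls and at 2.32%, 2.21% and 2.88% in the knockdown libraries. MAX was the only member of the 5 compared whose ratio did not overlap, with each knockdown library higher, a pattern found for 17.3% of the other tested genes (the reverse for 0.469%). Its log2 ratio differed by 0.30 between groups (exact two-sided permutation test, p = 0.1, the smallest that 3 against 3 allows, 0.5 after Benjamini-Hochberg adjustment over 5 ratios). Without knockdown replicate 4 it differed by 0.19, and without both libraries numbered 4 by 0.16. NBAS was at 0.326%, 0.371% and 0.553% of MYCN in the controls and at 0.426%, 0.343% and 0.739% in the knockdown libraries. ODC1 ran from 2.34% of MYCN in knockdown replicate 4 to 3.95% in knockdown replicate 2, a span that took in all controls. The log2 ratios of DDX1, NBAS, MYCNOS and ODC1 differed by 0.15, 0.23, -0.10 and -0.05, with exact permutation p-values of 0.5, 0.6, 0.2 and 1. Without knockdown replicate 4 the DDX1 ratio differed by 0.03, the NBAS ratio by -0.09, the MYCNOS ratio by -0.14 and the ODC1 ratio by 0.20. The MYCNOS ratio differed by -0.15 to -0.06 as single libraries were left out, nearest 0 without control replicate 4.

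**Figure D2:**
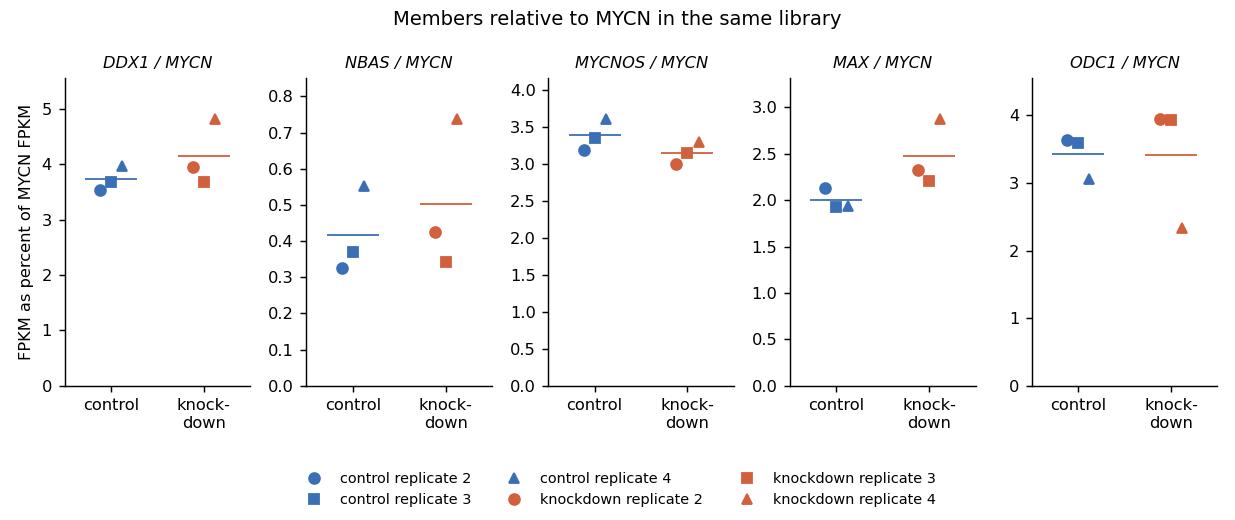
FPKM of 5 genes as a percentage of the MYCN FPKM of the same library, on linear axes that start at 0, with 1 point per library and a line at each group mean. Only the MAX panel has all 3 knockdown points above all 3 control points, and knockdown replicate 4 is the extreme point of the DDX1, NBAS, MAX and ODC1 panels.

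MYCN stood far above every measured gene that could be placed around it. Placing needed a symbol held by a single GENCODE gene, as for 23723 of the 26372 genes. Of these, 62 had their lowest coordinate within 6 Mb of that of MYCN. In this window 15 genes were listed at 0 in all libraries and 29 reached a mean of 1 FPKM. The 24 of these that are not members had a median level of 13.0 FPKM, against 11.9 over all tested genes. PDIA6, a protein disulfide isomerase of the endoplasmic reticulum, had the highest mean of them at 116 FPKM, and the MYCN mean was 17.2 times that of PDIA6 and 25.6 times that of DDX1. LAPTM4A, a lysosomal membrane protein, followed at 106 FPKM, then RHOB, a small GTPase, at 95.5 and RRM2, a ribonucleotide reductase subunit, at 61.0. The genes placed within 1 Mb were few. Those not yet named were GACAT3 at 6.80 to 8.58 FPKM, FAM49A at 0.233 to 0.729 and MYCNUT, listed at 0 in all but 1 library. The last 3 were chosen with their values in view.

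Of the 24 neighbours 11 had a fitted difference below 0 and 13 above, with a median of 0.01, and none passed the test (limma, 0 at an adjusted and 0 at an unadjusted p under 0.05). Groups did not overlap for 1 of the 24, RHOB, against 8.36% of all tested genes. It stood at 99.7, 98.0 and 98.6 FPKM in control cells and at 92.9, 96.2 and 87.6 in the knockdown libraries (log2 difference -0.10, limma unadjusted p = 0.189, adjusted p = 0.9998).

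**Figure D3:**
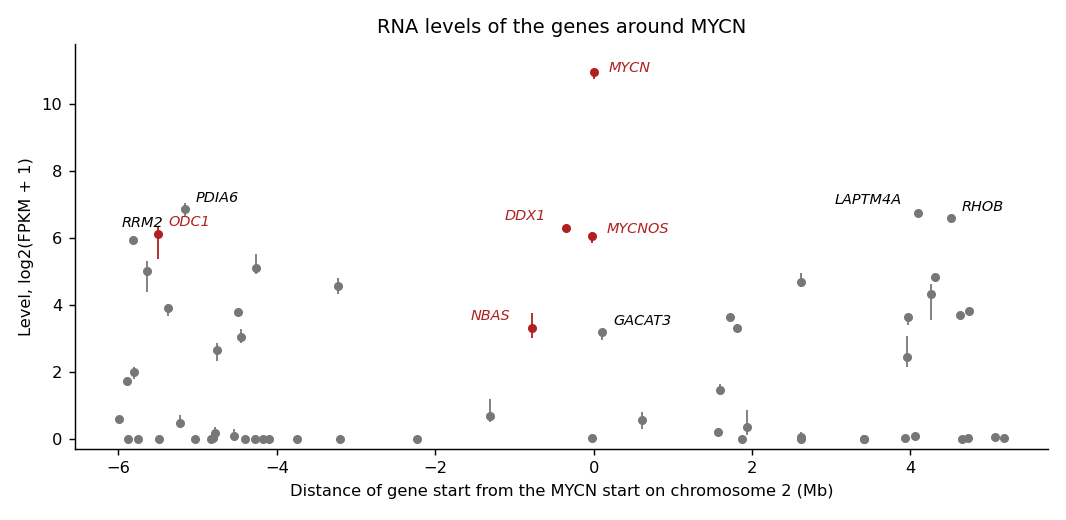
Level as log2(FPKM + 1) of the genes placed within 6 Mb of the MYCN start, plotted by distance from that start (lowest coordinates, in Mb). Points are at the mean over 6 libraries, vertical lines run from the lowest to the highest library, and members are in red. MYCN, with a mean of 2002 FPKM, stands above all other points, and DDX1, MYCNOS and ODC1 lie in the range of the most abundant other neighbours.

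MAX (chromosome 14, 65006174 to 65102695, minus strand), the obligate partner of the family, stood at 46.1, 41.3 and 38.6 FPKM in control cells and at 45.0, 45.6 and 49.2 in the knockdown libraries. Control replicate 2 lay within the knockdown values, so the groups overlapped. The means were 42.0 ± 3.80 and 46.6 ± 2.29 FPKM (SD, n = 3 each), with a log2 difference of 0.15 (SE 0.09, 95% interval -0.06 to 0.36, limma adjusted p = 0.9998). MXI1 (chromosome 10, 110207605 to 110287365, plus strand), a MAX-binding repressor, stood at 31.7, 33.9 and 38.0 FPKM in control cells and at 32.5, 30.2 and 37.1 in the knockdown libraries. MXD4 (chromosome 4, 2247432 to 2262294, minus strand), another repressor of the MXD group, stood at 27.1, 24.3 and 34.0 FPKM in control cells and at 21.7, 23.9 and 36.0 in the knockdown libraries. For both repressors the libraries numbered 4 were the 2 highest of the 6 and the groups overlapped, with log2 differences of -0.05 (SE 0.11) and -0.09 (SE 0.20).

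Ordered by mean level, the members ran from MYCN through DDX1, ODC1, MYCNOS, MAX, MXI1, MXD4, NBAS and MYCL to MYC. The ranges over the 6 libraries overlapped for DDX1 with ODC1 and for ODC1 with MYCNOS, so these neighbours in the order do not differ beyond their spread. They also overlapped for MXI1 with MXD4, although MXI1 was above MXD4 in each of the 6 libraries. All other neighbouring ranges were apart, the closest being MAX, whose lowest library was 38.6 FPKM, and MXI1, whose highest was 38.0.

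The MAX and MLX network as a whole, with MAX, MXI1 and MXD4 counted in, had no common direction: of 9 genes tested out of 10, 4 had differences above 0 and 5 below, with a median of -0.01 and none past the test. MXD3, the MXD protein of dividing cells, stood at 54.9, 52.4 and 50.9 FPKM in control cells and at 47.7, 53.1 and 36.5 in the knockdown libraries, the last being the lowest of the 6 (log2 difference -0.22, SE 0.14). MGA, a MAX-binding scaffold of a repressive Polycomb complex, had means of 8.99 ± 1.27 and 10.1 ± 0.875 FPKM (SD, n = 3 each; log2 difference 0.15, SE 0.11). MLXIPL, the carbohydrate-response factor ChREBP, was the gene under the level limit, at no more than 0.0388 FPKM.

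ODC1 (chromosome 2, 10439968 to 10448504, minus strand), which makes putrescine in the rate-limiting step of polyamine synthesis and is a long-known MYC target, differed more between libraries within a group than between groups. It stood at 79.0, 76.7 and 61.2 FPKM in control cells and at 76.5, 81.0 and 40.0 in the knockdown libraries. Both libraries numbered 4 were below the other 4, and knockdown replicate 4 was the lowest. The means were 72.3 ± 9.72 and 65.8 ± 22.5 FPKM (SD, n = 3 each), with a log2 difference of -0.19 (SE 0.27, 95% interval -0.82 to 0.44, limma adjusted p = 0.9998). Without knockdown replicate 4 the difference was 0.13, and without both libraries numbered 4 it was 0.02, so its sign rested on 1 library.

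The other polyamine synthesis genes had the same library as their lowest. AMD1, which makes the aminopropyl donor, stood at 43.9, 44.4 and 42.1 FPKM in control cells and at 44.2, 42.3 and 32.5 in the knockdown libraries (log2 difference -0.14, SE 0.12). SMS, spermine synthase, had means of 128 ± 9.95 and 122 ± 3.09 FPKM (SD, n = 3 each). Knockdown replicate 4 was the lowest of the 6 libraries for 4 of 4 genes of this list (ODC1, AMD1, SMS and the spermidine synthase SRM), as for 31.4% of all tested genes, and all 4 differences were below 0 (median -0.13, none past the test). The median of this list ranged from -0.23 to 0.05 as single libraries were left out. It was 0.05 only without knockdown replicate 4.

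Of the antizymes, which bind ODC1 and send it to the proteasome, and their inhibitors, 2 of 5 differences were above 0 and 3 below (median -0.04). The antizyme inhibitor AZIN2 stood at 1.75, 1.42 and 1.16 FPKM in control cells and at 1.35, 1.53 and 5.83 in the knockdown libraries, so that only knockdown replicate 4 was high. OAZ3, the antizyme known from testis, had means of 2.67 ± 0.781 and 3.53 ± 0.449 FPKM (SD, n = 3 each). In the breakdown and hypusine list 2 of 5 tested differences were above 0 and 3 below. SAT1, the acetyltransferase that starts polyamine breakdown, stood at 7.24, 6.32 and 6.28 FPKM in control cells and at 7.56, 8.30 and 25.7 in the knockdown libraries. Each knockdown library was above every control, most of all knockdown replicate 4 (log2 difference 0.76, SE 0.41, limma unadjusted p = 0.107). SAT1 was the only 1 of the 5 tested genes of this list with groups apart in this direction, against 4.01% of all tested genes. DHPS, which begins hypusine formation on the translation factor eIF5A, had means of 60.6 ± 3.42 and 57.5 ± 3.35 FPKM (SD, n = 3 each). None of these genes passed the test.

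**Figure D4:**
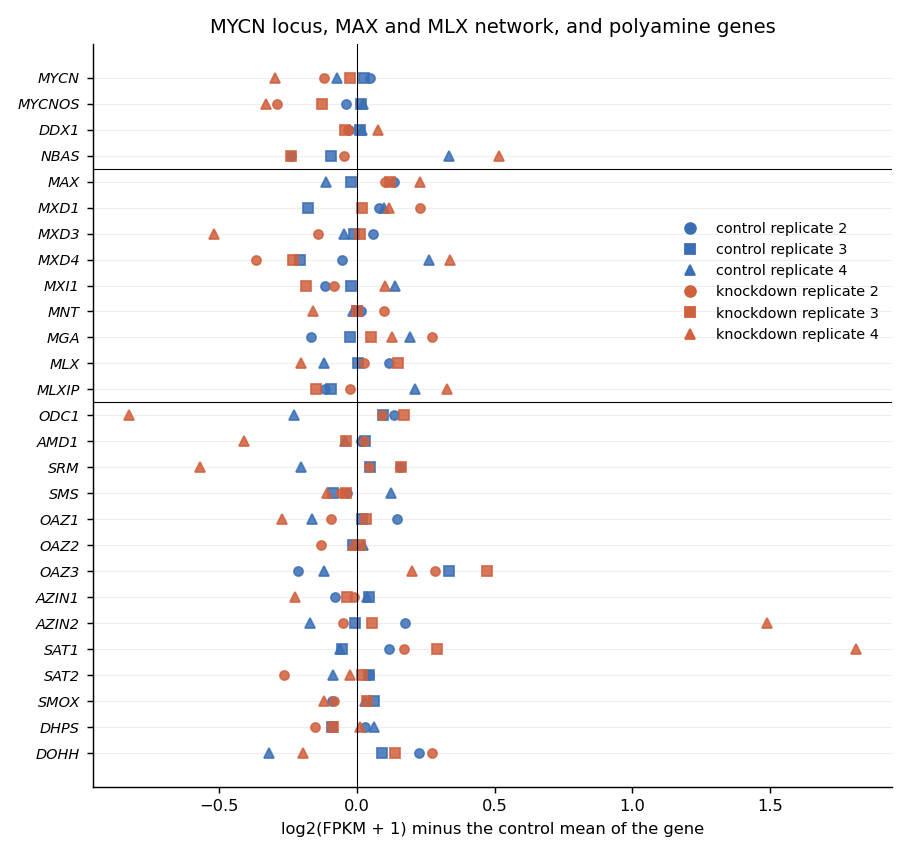
log2(FPKM + 1) of each gene in each library minus the control mean of that gene, for the MYCN locus, the MAX and MLX network, and the polyamine genes, with horizontal lines between these 3 blocks. Knockdown replicate 4 lies furthest left for ODC1, SRM, AMD1 and MXD3 and far to the right for SAT1 and AZIN2, and its MYCN and MYCNOS points are also the lowest of the 6.

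Genes reported as MYC or MYCN targets were mostly a little lower in the knockdown means, with knockdown replicate 4 the lowest library for most of them. Of 20 nucleolar and ribosome production genes 18 had differences below 0 and 2 above (median -0.08, none past the test, 1 at an unadjusted p under 0.05). Knockdown replicate 4 was the lowest of the 6 libraries for 20 of 20 genes, as for 31.4% of all tested genes, and both libraries numbered 4 lay below the other 4 for 15 of 20, as for 24.5% of all tested genes. The list median relative to the control mean was 0.08, 0.04 and -0.12 in the controls and 0.05, 0.07 and -0.32 in the knockdown libraries. Without knockdown replicate 4 the median difference was 0.06, and without both libraries numbered 4 it was -0.02.

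NPM1, the nucleolar chaperone nucleophosmin, stood at 2442, 2406 and 2623 FPKM in control cells and at 2196, 2364 and 1974 in the knockdown libraries. PES1, which matures the large ribosomal subunit, stood at 72.6, 70.8 and 63.9 FPKM in control cells and at 59.4, 61.8 and 55.4 in the knockdown libraries. For both genes every knockdown library was lower than every control, and they were the only 2 of the 20 with groups that did not overlap, against 4.35% of all tested genes in this direction. The log2 differences were -0.20 (SE 0.09) for NPM1 and -0.23 (SE 0.08, limma unadjusted p = 0.0271, adjusted p = 0.9998) for PES1. PES1 lies on chromosome 22, as does MIAT, and any bearing of this on its level was not tested. NPM1 has many processed pseudogenes, so its value may include reads shared with them.

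The list of metabolic and growth targets shares ODC1 and SRM with that of polyamine synthesis. In it 23 of 26 tested differences were below 0 and 3 above (median -0.09, none past the test, none at an unadjusted p under 0.05). Knockdown replicate 4 was the lowest library for 20 of these 26, and the median difference was 0.02 without it. LDHA, lactate dehydrogenase A, stood at 7.13, 7.10 and 6.99 FPKM in control cells and at 6.30, 6.45 and 5.71 in the knockdown libraries, each lower than every control (log2 difference -0.18, SE 0.08). Its level may be affected by its processed pseudogenes. The serine pathway enzymes PHGDH and SHMT2, singled out after their values were seen, were also lower in each knockdown library than in any control, which makes 3 of 26 genes with LDHA, against 4.35% of all tested genes. The reverse, each knockdown library higher than every control, held for 1 of the 26 and for 4.01% of all tested genes. PHGDH stood at 183, 167 and 157 FPKM in control cells and at 149, 156 and 137 in the knockdown libraries. SHMT2 had a lowest control value of 123 FPKM and a highest knockdown value of 119. For SHMT1 of the same list the groups overlapped. Its means were 9.45 ± 0.25 in control cells and 9.25 ± 0.96 FPKM after knockdown (SD, n = 3 each; log2 difference -0.03, SE 0.09). CCND2, the cyclin D2 gene often named as a MYC target, was listed at 0 in all 6 libraries.

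Among 9 tested genes reported to be repressed by MYC or MYCN, 4 differences were above 0 and 5 below (median -0.00), close to the median of -0.01 over all tested genes. CDKN1A, the cell cycle inhibitor p21, stood at 0.948 ± 0.317 and 1.29 ± 0.136 FPKM (SD, n = 3 each; log2 difference 0.25, SE 0.16). TGM2, a transglutaminase, stood at 2.63, 2.78 and 3.12 FPKM in control cells and at 2.67, 2.92 and 5.70 in the knockdown libraries, with only knockdown replicate 4 above all the rest.

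**Figure D5:**
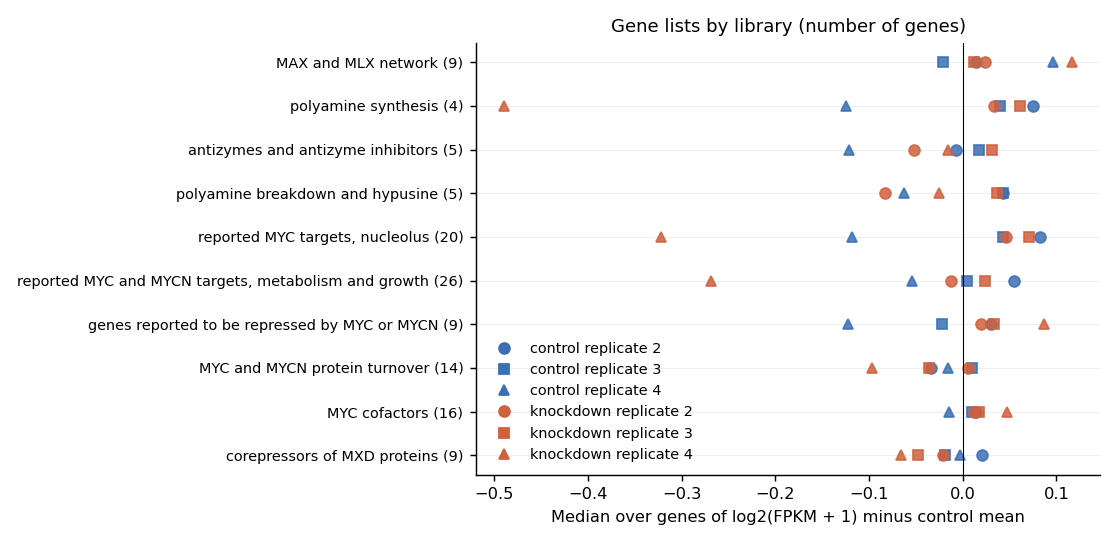
Median over the tested genes of each list of log2(FPKM + 1) minus the control mean, 1 point per library, with the number of genes in brackets. Knockdown replicate 4 lies furthest left for polyamine synthesis (-0.49), nucleolar targets (-0.32) and metabolic and growth targets (-0.27), and the other 5 libraries of these lists lie between -0.12 and 0.08.

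Proteins that control the stability of MYC and MYCN also had no gene past the test: of 14 genes 3 had differences above 0 and 11 below (median -0.05). USP28, a deubiquitinase that spares MYC from degradation, stood at 7.98, 8.10 and 8.03 FPKM in control cells and at 8.73, 7.88 and 11.4 in the knockdown libraries. AURKA, the mitotic kinase that shields MYCN from its ubiquitin ligase, stood at 61.1, 55.2 and 56.0 FPKM in control cells and at 58.0, 58.7 and 34.7 in the knockdown libraries; it was singled out after its values were seen. Its low value was confined to knockdown replicate 4 among the 6 libraries.

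Of 16 MYC cofactor genes 10 had differences above 0 and 6 below (median 0.04, none past the test). WDR5, a chromatin adaptor to which MYC binds, stood at 29.9, 29.9 and 27.4 FPKM in control cells and at 32.0, 31.9 and 30.2 in the knockdown libraries, each higher than every control (log2 difference 0.11, SE 0.07). It was the only one of the 16 with groups apart in this direction, against 4.01% of all tested genes. CCNT1, the cyclin of the elongation kinase CDK9, had means of 11.4 ± 0.290 and 12.5 ± 1.00 FPKM (SD, n = 3 each). Of 9 corepressor genes used by MXD proteins, 2 differences were above 0 and 7 below (median -0.04, none past the test). The histone deacetylase HDAC1 stood at 55.3, 52.9 and 52.7 FPKM in control cells and at 48.0, 51.8 and 50.2 in the knockdown libraries. HDAC2 stood at 72.2, 72.1 and 78.2 FPKM in control cells and at 68.0, 71.3 and 62.5 in the knockdown libraries. Both deacetylases were lower in every knockdown library than in any control, by 0.10 (SE 0.07) and 0.14 (SE 0.08) on the log2 scale, and neither passed the test. All 3 knockdown libraries were lower for these 2 of the 9 genes and for 4.35% of all tested genes.

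The E box shown above for ODC1 and MXD4 was also counted in the windows of these lists. CACGTG was found in 7 of 15 nucleolar genes with a window, in 10 of 22 metabolic and growth genes and in 2 of 4 polyamine synthesis genes, against 13.1% of all tested genes with a window. It was found in 3 of 10 genes of the MAX and MLX network, in 4 of 11 cofactor genes, in 2 of 12 turnover genes and in 0 of 4 genes reported as repressed. The MYC family had it in 0 of 2 genes and the antizymes and their inhibitors in 0 of 3. Polyamine breakdown and hypusine genes had it in 1 of 4, and corepressor genes in 1 of 8. The target lists were drawn from genes known as MYC targets, so their share of E boxes is not independent of how they were chosen. The metabolic and growth list and the polyamine synthesis list share ODC1 and SRM, so their counts are not separate.

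The genes whose levels followed MYCN most closely over the 6 libraries, among 9107 other genes averaging 5 FPKM or more, were TRMU (Pearson r = 0.998), which modifies mitochondrial tRNA, TWF2 (0.995), an actin-binding protein, UCP2 (0.995), a mitochondrial carrier, NME4 (0.993), a mitochondrial nucleoside diphosphate kinase, and ATP5A1 (0.993), a subunit of ATP synthase. These values describe 6 libraries that share their scaling, and 666 of the 9107 genes (7.31%) had an r of at least 0.9. Among the members r with MYCN was 0.88 for ODC1 and 0.81 for MYCNOS, and it was below 0 for MAX (-0.47), MXD4 (-0.54), MXI1 (-0.56), DDX1 (-0.70) and NBAS (-0.82). Knockdown replicate 4, the lowest library for MYCN, was also the lowest for ODC1 and MYCNOS and the highest for DDX1, NBAS, MAX and MXD4.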

How the data were processed

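RNA was measured in 6 libraries of BE(2)-M17 cells, 3 control and 3 GOMAFU knockdown, grouped by their labels. The authors deposited FPKM values for 26372 genes, with TopHat2, Cuffdiff and hg38 named per the submitters' processing notes; no source used here gives versions, annotation or strand setting. FPKM shares a library total, so an abundant transcript that is higher in a library lowers the rest. Per the labels' protocols, paired reads of 150 bases were made with a target of 100M per sample. The true depth is unknown, and with no counts neither a count model nor counting intervals were possible. From the steps between low values, depth relative to control replicate 3 was 1.10 and 0.972 in control replicates 2 and 4 and 1.07, 1.36 and 1.06 in knockdown replicates 2, 3 and 4.

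The 12164 genes averaging 1 FPKM or more were compared as log2(FPKM + 1) in limma 3.58.1 (R 4.3.3; eBayes with an intensity trend, two-sided, no covariate), with Benjamini-Hochberg adjustment over all of them and a threshold of 0.05. Differences are knockdown minus control on that scale, which understates changes of low genes, and the intervals are 95% from the same fit. Ratios were compared by exact two-sided permutation (SciPy 1.17.1). The fit was tested on simulated data, drawn as independent normal values in which no library stood apart, unlike these data. The 10 members and the gene lists were chosen with earlier results of these data known. Of 157 list entries 156 matched by symbol and 1 by an older symbol. Named are the members, MIAT, up to 2 other genes per list with the smallest p, the 4 most abundant neighbours within 6 Mb and any with groups apart, and the 5 genes most like MYCN; a few genes under this rule are not reported here. Coordinates are from GENCODE 29 (GRCh38), matched by symbol. The alternatives were pseudocounts of 0.1 and 0.01, no limit on level or one of 5 FPKM, upper-quartile and quantile scaling, robust eBayes, library weights, a replicate block, ratios of FPKM + 1, and leaving out each library. The fit without both libraries numbered 4 was chosen after seeing the data.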

Additional observations from a re-analysis of the deposited data

How the results depend on the processing

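No member was called under any of the 16 alternatives, and MYCN (log2 difference -0.21 to -0.05), MYCNOS (-0.31 to -0.20) and MAX (0.05 to 0.22) kept their sign under all 16. Over all genes, limma called 22 genes with library weights (9 higher, 13 lower; 0.181%; 2854 at an unadjusted p under 0.05; the fit of the weights stopped before its tolerance) and 1 gene, lower, without both libraries numbered 4; every other alternative called 0, with 140 to 543 at an unadjusted p under 0.05. The cause was not tested. DDX1 changed sign to 0.00075 with upper-quartile scaling and to 0.013 with quantile normalization. With single libraries left out, the log2 difference ranged from -0.038 to 0.021 for DDX1, -0.14 to 0.24 for NBAS, -0.13 to 0.014 for MXI1, -0.30 to 0.054 for MXD4 and -0.37 to 0.13 for ODC1, and the log2 ratio to MYCN from -0.086 to 0.47 for NBAS and -0.17 to 0.20 for ODC1. Without both libraries numbered 4, ODC1 was at 0.016 and its ratio to MYCN at 0.12. With single libraries left out, the list medians ranged from -0.0079 to 0.054 for the MAX and MLX network, -0.055 to 0.074 for repressed genes, -0.069 to 0.0010 for turnover and -0.0070 to 0.10 for cofactors. With library weights these medians were 0.051 for the MAX and MLX network, 0.029 for turnover, 0.0041 for cofactors and -0.012 for corepressors, and without both libraries numbered 4 they were 0.0049 for turnover and 0.0051 for cofactors. With the replicate number as a block, limma called 0 genes (520 at an unadjusted p under 0.05, against 263), and MYCNOS stood at -0.25 (adjusted p = 0.894). Deviations of same-numbered samples correlated at 0.092, 0.168 and 0.322, and the last, for the libraries numbered 4, was the highest of any pair. Control replicate 2 correlated best with knockdown replicate 3 (0.318), so the numbers were not taken to pair all samples, and the block is given as an alternative only. A fit that leaves out a library from a group of 3 rests on 5 libraries, and the number of libraries limits the precision of every value here.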
